A study of Helianthus annuus with 6 samples.

Results

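In petioles of cultivated sunflower (Helianthus annuus), 124 RefSeq genes were expressed in every library of the leaf-flat inbred line 19G and were at most at a trace in every library of the leaf-compact inbred line 20G. A gene was taken into this set when it had at least 3 FPKM in all 3 libraries of 19G, at most 0.5 FPKM in each of the 3 libraries of 20G, and a value above 0 in at least 1 of them. FPKM counts the fragments of a transcript relative to its length and to the fragments mapped in the library. The 100 loci with the highest mean FPKM over the 6 libraries were to be left out, and none of them met the other criteria. The 124 genes, called trace genes here, made up 0.217% of the 57126 RefSeq genes in the files and 0.780% of the 15890 RefSeq genes with at least 3 FPKM in all libraries of 19G. Of those 15890 genes, a further 149 had a value of 0 in each library of 20G. The mirror rule, with at least 3 FPKM in all libraries of 20G and a trace in 19G, was met by 91 genes.

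The petiole is the stalk that joins the leaf blade to the stem, and the angle at which it is held sets how steeply the leaf stands and how much light reaches the leaves below. Leaf angle in crop plants is known to depend on unequal growth of the upper and lower sides of the stalk or its joint, on wall stiffness and on growth hormones such as auxin and brassinosteroids. Inbred lines of one species commonly differ in whether a gene is expressed, and also in whether they carry it at all.

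Both groups are inbred lines. Line 19G has a large petiole inclination angle with flat leaves, and line 20G has a small angle with compact leaves. No treatment, age or growth stage is given in the labels, and each line stands for its leaf form alone, so leaf form and any other difference between the lines cannot be told apart. The libraries are of bulk petiole tissue, in which fewer cells of a type and less RNA per cell cannot be told apart. Separate plants behind the 3 libraries per line are not stated in the labels; p-values thus reflect library-to-library spread alone, possibly of technical origin. The files give identifiers without product names, so the function of the trace genes is not given and the tissue was not checked against marker genes.

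Sequencing depth is unknown, because FPKM keeps no counts. Summed FPKM was 638235 to 685174 in the 19G libraries and 660268 to 701884 in the 20G libraries. One library stood apart from its line. On the log2(FPKM + 1) scale, 19G replicate 1 correlated with the other libraries of 19G at Pearson's r of 0.886 and 0.906 across the 28292 tested loci, against 0.972 between those other libraries and 0.951 to 0.974 within 20G. Genes within a library are not independent replicates, and these values are descriptions. With 19G replicate 1 left out of the rule, 184 genes would have entered the set, among them all 124.

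The trace genes were chosen by these FPKM values in both lines, so the values that follow are a description without a test. Summed over the 124 genes, the libraries of 19G held 1830, 2431 and 2606 FPKM, against 13.2, 13.5 and 13.5 FPKM in the libraries of 20G. The mean level in 19G ran from 3.66 to 273.6 FPKM with a median of 8.77, and the mean level in 20G ran from 0.00225 to 0.379 FPKM with a median of 0.0718. Most trace genes were of modest abundance in 19G. Means from 3 to under 5 FPKM were found for 18 genes, from 5 to under 10 for 52, from 10 to under 20 for 28, from 20 to under 50 for 21, and of 50 or more for 5. The median of the remaining 15766 RefSeq genes with at least 3 FPKM in all libraries of 19G was 13.8 FPKM. The 3 highest trace genes held 28.3% of the summed mean level in 19G.

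LOC110918190 was the most abundant of them and ranked 260th among all RefSeq genes by its mean in 19G. It stood at 194.2, 294.5 and 332.1 FPKM in the 19G libraries, against 0, 0.0763 and 0.131 FPKM in the 20G libraries. LOC110879830 stood at 122.9, 219.8 and 239.2 FPKM in 19G, against 0.272, 0.277 and 0.359 FPKM in 20G. Unlike LOC110918190, it was above 0 in every library of 20G, at values close to each other. LOC110922285 stood at 128.4, 193.6 and 219.4 FPKM in 19G, against 0, 0 and 0.0841 FPKM in 20G. In these 3 genes the lowest value of 19G was that of replicate 1. LOC110940690 showed the other order within 19G, with 107.2 FPKM in replicate 1 and 71.6 and 66.2 FPKM in replicates 2 and 3, against 0, 0 and 0.113 FPKM in 20G. Differences on the log2(FPKM + 1) scale, 19G minus 20G, were 7.97 (SE 0.23) for LOC110918190, 7.17 (SE 0.27) for LOC110879830, 7.43 (SE 0.23) for LOC110922285 and 6.28 (SE 0.23) for LOC110940690. This scale understates the change of genes with low values, and the size of each difference rests on the pseudocount of 1.

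**Figure D1:**
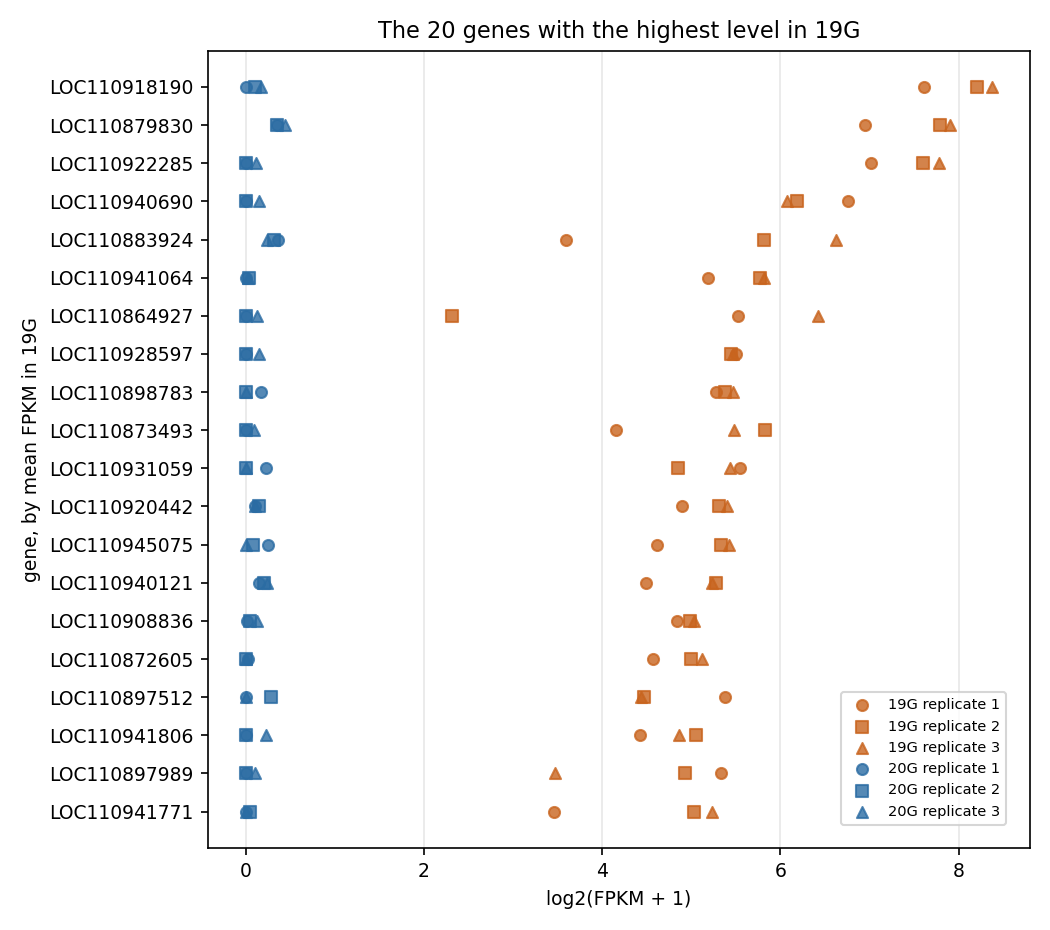
Level of the 20 trace genes with the highest mean in 19G, one gene per line, with each library as a point; the horizontal axis is log2(FPKM + 1), and marker shape gives the replicate. All 20G points lie at the left edge, and 19G replicate 1 is the lowest 19G point in 14 of the 20 genes.

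The next genes by level ranged from evenly to very unevenly expressed within 19G. LOC110928597 was among the most even of all trace genes, at 44.2, 42.8 and 43.3 FPKM in 19G, against 0, 0 and 0.109 FPKM in 20G. LOC110898783 stood at 37.7, 40.7 and 43.2 FPKM in 19G, against 0.130, 0 and 0 FPKM in 20G. LOC110908836 stood at 27.6, 30.7 and 31.7 FPKM in 19G, against 0.00889, 0.0324 and 0.0943 FPKM in 20G. In these 3 genes the 19G libraries differed by less than 1.2 times. LOC110883924 was uneven, at 11.04, 55.3 and 97.6 FPKM in 19G, against 0.287, 0.247 and 0.184 FPKM in 20G. LOC110864927 was the most uneven of the set, with 45.0, 3.98 and 85.0 FPKM in 19G, against 0, 0 and 0.0893 FPKM in 20G. Its log2 difference of 4.71 (SE 0.96) became 5.93 without 19G replicate 2 and 3.88 without 19G replicate 3. Its call was lost without 20G replicate 2, at a difference of 4.69. The call was kept at the same difference without 20G replicate 1, where this gene was likewise listed at 0. The loss is thus not owed to the value of this gene in 20G replicate 2. The log2 difference of LOC110883924, 5.03 (SE 0.70), became 5.91 without 19G replicate 1 and 4.39 without 19G replicate 3.

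Of the others among the 20 highest, LOC110941064 averaged 48.2 ± 11.1 FPKM in 19G and 0.0163 ± 0.0146 FPKM in 20G (SD, n = 3 each). LOC110873493 averaged 38.8 ± 19.9 FPKM in 19G and 0.0225 ± 0.0390 FPKM in 20G. LOC110931059 averaged 38.6 ± 9.57 FPKM in 19G and 0.0558 ± 0.0967 FPKM in 20G. The ranges of these 3 genes in 19G overlap, so their order by level there is not firm. LOC110920442 averaged 36.21 ± 6.499 FPKM in 19G and 0.0871 ± 0.0195 FPKM in 20G, LOC110945075 averaged 34.9 ± 9.89 FPKM in 19G and 0.0823 ± 0.0965 FPKM in 20G, and LOC110940121 averaged 31.9 ± 9.04 FPKM in 19G and 0.147 ± 0.036 FPKM in 20G. The remaining 6, LOC110872605, LOC110897512, LOC110941806, LOC110897989, LOC110941771 and the already described LOC110908836, had means of 26.1 to 30.0 FPKM in 19G. The 104 trace genes beyond the 20 highest had means of 3.66 to 26.1 FPKM in 19G (median 7.61) and of 0.00225 to 0.379 FPKM in 20G (median 0.0861).

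The trace in 20G was spread over its libraries. It was above 0 in all 3 libraries of 20G for 48 genes, in 2 for 33 and in 1 for 43. By library, 83, 77 and 93 trace genes were above 0 in 20G replicates 1, 2 and 3, and the highest 20G value fell in replicate 1 for 33 genes, in replicate 2 for 40 and in replicate 3 for 51. The mean in 20G was between 0.0121% and 7.79% of the mean in 19G, with a median of 0.678%, and it was under 1% for 74 of the 124 genes. The level in 19G and the trace in 20G did not follow each other closely: Spearman's rho over the 124 genes was -0.11, a description over genes measured in the same 6 libraries and cut off by the rule on both axes. Of the 20 genes highest in 19G, 5 were above 0 in all libraries of 20G, as were 43 of the other 104.

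The genes at the 2 ends of that ratio, chosen after their values were seen, show what the trace amounted to. LOC110884353 had the smallest share, at 11.5, 20.4 and 23.9 FPKM in 19G, against 0, 0 and 0.00675 FPKM in 20G. LOC110878648 had the largest share, at 5.02, 4.25 and 4.05 FPKM in 19G, against 0.302, 0.467 and 0.269 FPKM in 20G. The narrowest gap between the lines, the lowest 19G value over the highest 20G value of the same gene, was 8.67 times, and the gap was over 20 times in 97 genes. A value of 0 in such a file can be a failed estimate, so genes are described as listed at 0.

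**Figure D2:**
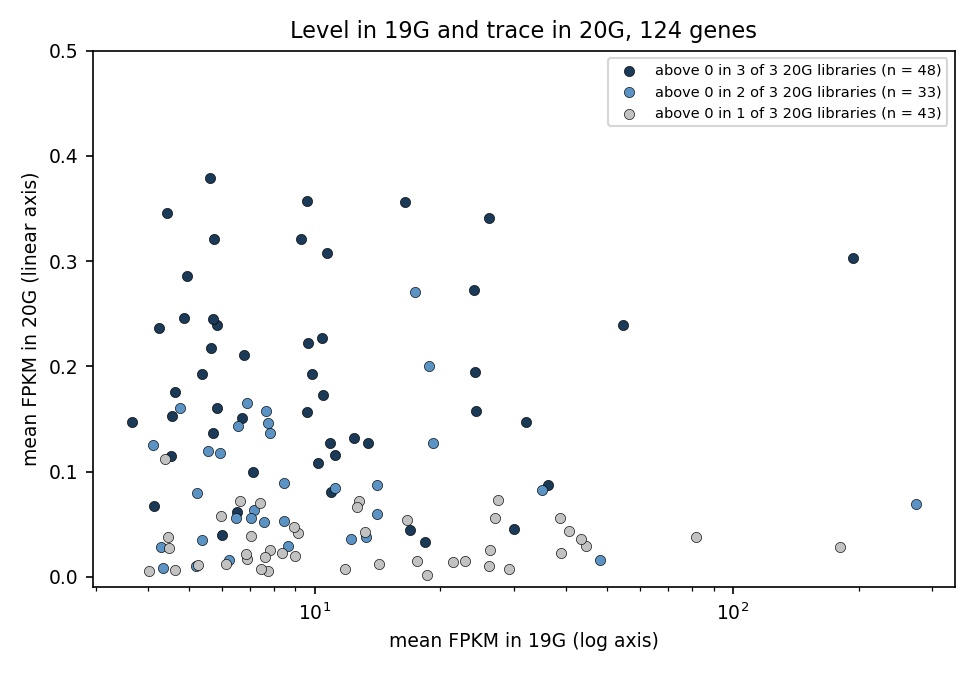
Mean FPKM in 19G (horizontal, log axis) and mean FPKM in 20G (vertical, linear axis) for the 124 trace genes, with shading for the number of 20G libraries above 0. Genes above 0 in all 3 libraries of 20G (48) are found over most of the range of levels in 19G.

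Genes just inside and just outside the thresholds lay close to each other in value. By the lowest value in 19G, the last genes taken in were LOC110932094, LOC110921114 and LOC110928701, with minima of 3.02, 3.06 and 3.16 FPKM, and the first left out were LOC110899254, LOC110942086 and LOC110926534, with minima of 2.98, 2.97 and 2.96 FPKM. By the highest value in 20G, the last taken in were LOC110937949, LOC110921684 and LOC110897837, with maxima of 0.499, 0.498 and 0.474 FPKM, and the first left out were LOC110872442, LOC110918714 and LOC110923554, with maxima of 0.559, 0.563 and 0.587 FPKM. LOC110921684 shows how a gene near the limit looked, at 12.8, 24.4 and 41.2 FPKM in 19G, against 0.498, 0.106 and 0.418 FPKM in 20G.

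All 124 trace genes passed the filter of at least 1 FPKM in 3 or more libraries, through their 19G values alone. In the fit across all loci (limma, with calls at a Benjamini-Hochberg adjusted p below 0.05 plus an absolute log2 difference of 1 or more), all 124 were called higher in 19G. Over all 28292 tested loci, 8.7% were called in that direction. Because the same contrast chose the genes, nothing is read from this count. The log2 differences ran from 2.01 to 7.97 with a median of 3.11, against a median of -0.02 over all tested loci.

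How the trace genes vary within 19G was fixed by the rule only in that all values reach 3 FPKM. The highest 19G library exceeded the lowest by a median of 1.62 times in trace genes, against 1.49 times in the 15766 other RefSeq genes of at least 3 FPKM in 19G. In the 149 genes listed at 0 in 20G this median was 1.56 times. Trace genes were also lower in 19G than the 15766 others, at medians of 8.77 and 13.8 FPKM. Whether level plays a part in the spread was not tested. Differences under 1.5 times were seen in 34.7% of trace genes and 51.1% of the others, and differences of at least 2 times in 24.2% of trace genes and 21.6% of the others. The lowest 19G value was that of replicate 1 in 82 trace genes (66.1%), against 60.4% of the others. Relative to the mean of replicates 2 and 3 of 19G, replicate 1 had a median log2 ratio of -0.47 in trace genes and -0.26 in the others. Over 2-fold below that mean lay 12 trace genes (9.68%), where 9.72% of all 15890 genes did, and over 2-fold above it lay 3 (2.42%), where 5.43% did. The share of trace genes far below the mean in 19G replicate 1 was thus near the background. A single library cannot be tested against the others, and the part that this library plays in the spread of the trace genes was not tested.

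**Figure D3:**
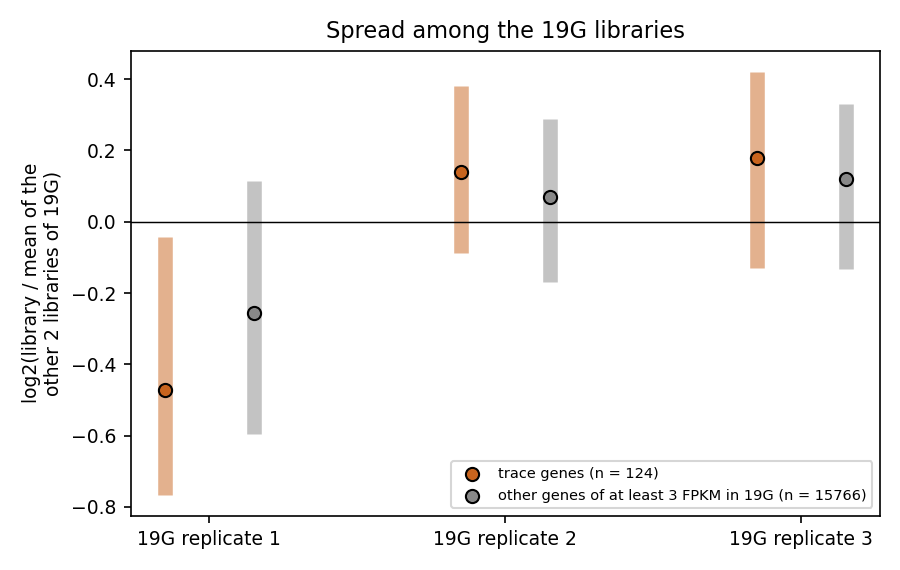
Median (point) and quartiles (bar) of the log2 ratio of each 19G library to the mean of the other 2 libraries of 19G, for the 124 trace genes and for 15766 other RefSeq genes of at least 3 FPKM in all libraries of 19G. Replicate 1 lies below 0 in both sets, at medians of -0.47 and -0.26.

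The 5 most even trace genes were LOC110885593, LOC110928597, LOC110900036, LOC110940080 and LOC110899227. LOC110885593 stood at 7.158, 6.939 and 7.001 FPKM in 19G, against 0.0314, 0 and 0.137 FPKM in 20G. LOC110900036 stood at 6.52, 6.76 and 6.63 FPKM in 19G, against 0.215, 0 and 0 FPKM in 20G. LOC110940080 stood at 7.66, 7.71 and 7.37 FPKM in 19G, against 0.120, 0.0381 and 0 FPKM in 20G. In each of these 3 genes the libraries of 19G differed by under 1.05 times. The most uneven, beside LOC110864927 and LOC110883924, were LOC118491496, LOC110881443 and LOC110897989. LOC118491496 was far higher in 19G replicate 2 than in the other 19G libraries, at 8.69, 35.9 and 6.04 FPKM in 19G. It stood at 0.0195, 0.0880 and 0.0263 FPKM in 20G. Its log2 difference of 3.70 became 2.98 without 19G replicate 2, and its call was kept. LOC110881443 was highest in 19G replicate 1, at 12.6 FPKM against 3.17 and 5.28 FPKM in replicates 2 and 3 of 19G, and was listed at 0, 0.118 and 0 FPKM in 20G. LOC110897989 also had its highest value there, with 39.2, 29.5 and 10.1 FPKM in 19G, against 0, 0 and 0.0769 FPKM in 20G.

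Where the trace genes lie among other genes was not used by the rule. All 57126 RefSeq identifiers of the files matched RefSeq's gene table for assembly HanXRQr2.0-SUNRISE, in which 56957 of them, including all 124 trace genes, are placed on its 17 chromosomes. The labels and files name no build, so only the order of genes is used. Trace genes were found on all 17 chromosomes. There were 3 pairs of trace genes next to each other, and 8 pairs, these 3 included, were up to 10 places apart. Pairs were not counted in other sets of genes, so whether these are few or many cannot be told.

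The first adjacent pair was LOC110915003 and the most abundant trace gene, LOC110918190. LOC110915003 was far lower, at 3.22, 4.47 and 5.33 FPKM in 19G, against 0.00716, 0 and 0.0179 FPKM in 20G. The second was LOC110927219 and LOC110900788. LOC110927219 averaged 6.15 ± 1.93 FPKM in 19G and 0.0127 ± 0.0220 FPKM in 20G, and LOC110900788 averaged 10.9 ± 3.43 FPKM in 19G and 0.127 ± 0.057 FPKM in 20G (SD, n = 3 each). The third joined LOC110885593, the most even gene of the set, with LOC110885591, which averaged 4.25 ± 0.58 FPKM in 19G and 0.236 ± 0.063 FPKM in 20G. The files hold no sequence, so whether members of a pair are copies of each other was not tested, and reads shared between copies would make both values uncertain.

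The genes directly beside the trace genes, which did not enter the rule, were read in the same fit. Of 242 adjacent RefSeq genes that are not trace genes, 87 were expressed enough to be tested. Among these 87, 15 (17.2%) were called higher in 19G, against 4.88% of all 22984 tested RefSeq genes on chromosomes other than the trace genes, and 4 (4.60%) were called higher in 20G, against 6.17%. The other 68 were not called, and the median log2 difference over the 87 was 0.06. The share called higher in 19G was 12.96% among the 432 tested genes up to 5 places away and 10.4% among the 882 up to 10 places away. By single distance up to 20 places, it was 17.2% at 1 place, 16.3% at 2 places and 16.5% at 16 places, and between 4.55% and 12.9% at the other distances, so it did not fall evenly with distance. These shares are descriptions of the genes around a set that was chosen with results in view, and no chance test of them was made. Beside the 149 genes listed at 0 in 20G, 9 of 95 tested genes (9.47%) were called higher in 19G, and beside the 91 genes of the mirror rule 11 of 73 (15.1%) were called higher in 20G. Whether these shares differ from that of the trace genes was not tested.

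**Figure D4:**
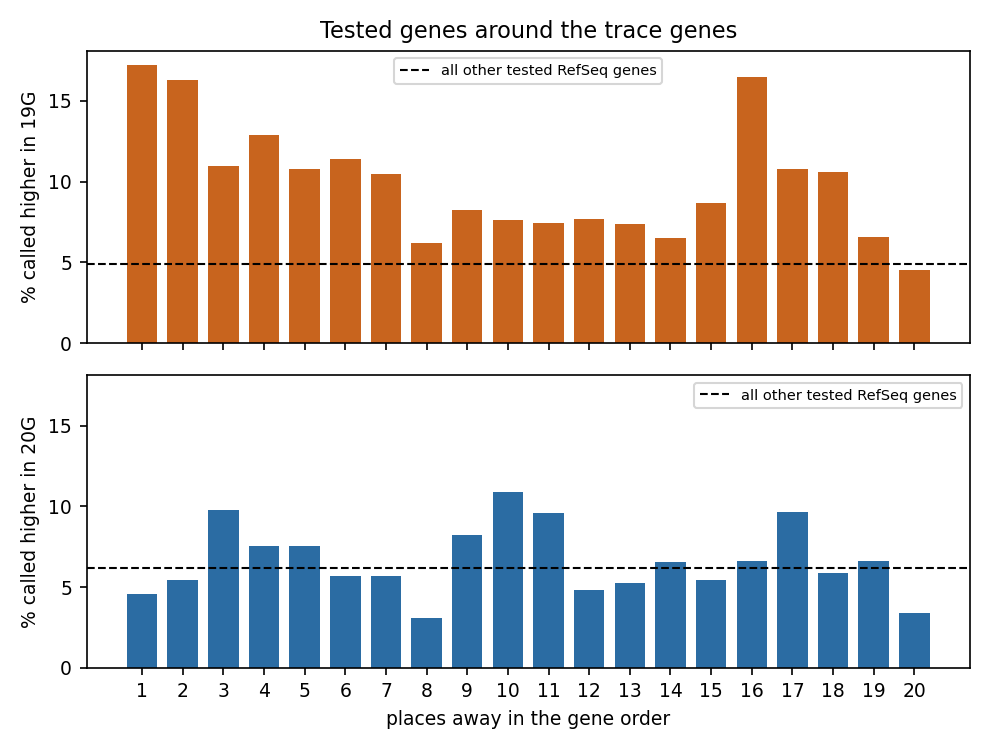
Percentage of tested RefSeq genes called higher in 19G (upper panel) and called higher in 20G (lower panel) by their distance in places from a trace gene, trace genes themselves left out; the dashed lines are the percentages over all other tested RefSeq genes on chromosomes, 4.88 and 6.17. The 3 tallest upper bars are those at 1, 16 and 2 places (17.2, 16.5 and 16.3), and the others reach at most 12.9.

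Several adjacent genes shared the near-absence from 20G without meeting the rule. Of the 15 called higher in 19G, 4 were at 1 FPKM or more in every 19G library and listed at 0 in all of 20G, which is 4.60% of the 87 tested, against 1.22% of all other tested RefSeq genes on chromosomes. The 4 were LOC110878374, LOC110899226, LOC110926629 and LOC110898784. LOC110878374, beside the trace gene LOC110878408, stood at 7.10, 15.8 and 13.1 FPKM in 19G. LOC110899226, beside LOC110899227, stood at 8.42, 6.74 and 5.61 FPKM in 19G. LOC110898784, beside LOC110898783, was lower, at 1.53, 2.24 and 3.07 FPKM in 19G. The genes beside trace genes that are named in the text were chosen after their values were seen.

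Other adjacent genes were expressed in both lines and only differed in level. LOC110928702, next to LOC110928701, averaged 25.2 ± 5.74 FPKM in 19G and 1.55 ± 0.34 FPKM in 20G (SD, n = 3 each), a log2 difference of 3.35 (SE 0.23, limma adjusted p = 5.53e-05). LOC110897840, next to LOC110921114, averaged 52.5 ± 11.7 FPKM in 19G and 11.97 ± 0.38 FPKM in 20G, a log2 difference of 2.02 (SE 0.21, limma adjusted p = 0.000343). LOC110878407, on the other side of LOC110878408, was abundant throughout, at 270.3, 184.1 and 145.6 FPKM in 19G, against 88.6, 73.1 and 91.4 FPKM in 20G. Its log2 difference of 1.19 (limma adjusted p = 0.0157) lost its call when any library but 19G replicate 3 was left out.

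A few trace genes had a neighbour that went the other way. The 4 adjacent genes called higher in 20G were LOC110908628, LOC110908117, LOC110940307 and LOC110893926. LOC110908628 was listed at 0 in all 3 libraries of 19G, against 9.49, 14.3 and 9.96 FPKM in 20G (limma adjusted p = 2.51e-05). Its neighbour, the trace gene LOC110906903, had the reverse arrangement, with 24.9, 8.86 and 9.06 FPKM in 19G, against 0, 0.0378 and 0 FPKM in 20G. LOC110908117 was likewise listed at 0 throughout 19G, against 4.02, 2.95 and 2.90 FPKM in 20G (limma adjusted p = 7.59e-05). Beside it, the trace gene LOC110908118 stood at 9.38, 12.8 and 15.0 FPKM in 19G, against 0.0698, 0.138 and 0.188 FPKM in 20G. In both pairs the 2 genes were thus expressed in opposite lines. The rule fixed this separation for the trace genes. Only that of their neighbours, where the lines did not overlap either, was observed apart from the rule. LOC110940307, beside LOC110940684, was not confined to one line and stood at 51.8 ± 24.6 FPKM in 19G and 197.8 ± 30.0 FPKM in 20G (SD, n = 3 each, limma adjusted p = 0.00683). LOC110893928 lay between genes of both kinds: LOC110893927 averaged 7.77 ± 0.93 FPKM in 19G and 2.98 ± 0.83 FPKM in 20G, a difference that lost its call without 20G replicate 2, while LOC110893926 averaged 1.18 ± 0.47 FPKM in 19G and 6.88 ± 1.21 FPKM in 20G.

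The sharpest local contrast within 5 places of a trace gene, picked after the values were seen, was around LOC110928597. LOC110928594, 3 places away, stood at 0.0798, 0 and 0.335 FPKM in 19G, against 343.5, 320.4 and 555.3 FPKM in 20G. LOC110928597 itself held 43.4 ± 0.73 FPKM in 19G and 0.0364 ± 0.0631 FPKM in 20G. LOC110928596, which lies between them, did not pass the test, at 8.39 ± 0.46 FPKM in 19G and 8.59 ± 1.61 FPKM in 20G (SD, n = 3 each, limma adjusted p = 0.97). No other tested gene within 10 places of LOC110928597 was called.

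By count alone, genes called higher in 19G were most numerous around 2 other trace genes, at 6 each within 10 places. These were also picked after the values were seen, and the number of tested genes differed between them. Over all tested RefSeq genes on chromosomes other than the trace genes, 4.88% were called higher in 19G. Within 10 places of LOC110875331, 6 of 7 tested genes were called higher in 19G. LOC110875331 had a higher mean in 19G than any of these 6, at 9.60, 11.98 and 5.35 FPKM in 19G, against 0, 0.0589 and 0 FPKM in 20G. Of its neighbours, LOC110877247 was the least certain, with a limma adjusted p of 0.048, and its call was lost under 8 of the alternatives tried. The tested gene that did not pass, LOC110877252, stood at 11.97 ± 1.45 FPKM in 19G and 14.5 ± 0.69 FPKM in 20G (SD, n = 3 each).

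Within 10 places of LOC110926628, 6 of 13 tested genes were called higher in 19G. Of these 6, LOC110900634 is a further trace gene, and its call comes through the rule itself. LOC110926628 stood at 5.55, 9.01 and 8.65 FPKM in 19G, against 0.303, 0 and 0.137 FPKM in 20G. LOC110900634, 4 places away, stood at 12.6, 21.4 and 23.5 FPKM in 19G, against 0.193, 0.187 and 0 FPKM in 20G. In both genes the lowest 19G value was that of replicate 1. LOC110926629 and LOC110927215 had no signal above 0 anywhere in 20G, and LOC110900599 and LOC110927210 did not exceed 0.0581 FPKM there, while all 4 averaged 2.14 to 4.17 FPKM in 19G. The sixth, LOC110927184, was closest to the threshold, at 2.18, 1.60 and 1.98 FPKM in 19G, against 0.502, 0.569 and 0.229 FPKM in 20G, a log2 difference of 1.03 (SE 0.17, limma adjusted p = 0.0036). Its call was lost without 19G replicate 1, without 20G replicate 3 and with quantile normalization, at differences of 0.97, 0.92 and 0.91. Without it 5 called genes would remain within 10 places of LOC110926628. LOC110899227 also had 5, out of 5 tested, with the trace gene LOC110899232 among them. LOC110900634 had 5 as well, with LOC110927184 and the trace gene LOC110926628 among them. Genes in between were expressed in both lines: LOC110927211 averaged 16.1 ± 4.40 FPKM in 19G and 21.3 ± 0.30 FPKM in 20G, and LOC110927189 averaged 6.36 ± 4.13 FPKM in 19G and 16.9 ± 1.44 FPKM in 20G (SD, n = 3 each), with limma adjusted p of 0.28 and 0.082.

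**Figure D5:**
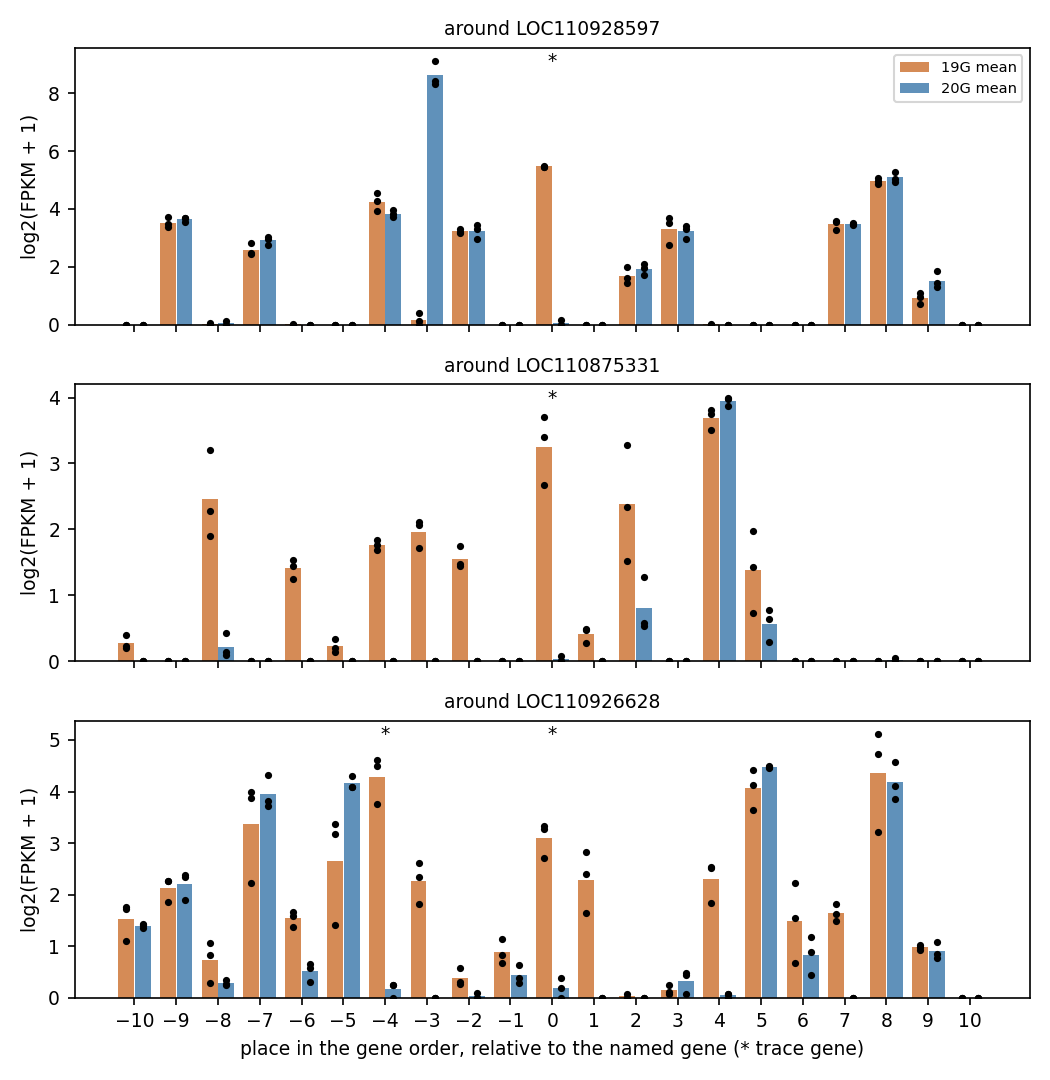
Level by place in the gene order around LOC110928597, LOC110875331 and LOC110926628, as the mean of log2(FPKM + 1) in 19G and in 20G (bars) with each library as a dot; asterisks mark trace genes, and the vertical scale differs between panels. In the upper panel the tall 20G bar 3 places to the left is LOC110928594, and in the lower panels several 19G bars stand beside no visible 20G bar.

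Over the whole set, 71 of the 124 trace genes (57.3%) had a gene called higher in 19G within 10 places, further trace genes included, against 32.4% of the 15739 other RefSeq genes on chromosomes with at least 3 FPKM in all libraries of 19G. A gene called higher in 20G lay within 10 places of 48 trace genes (38.7%), against 37.01% of those others. No called gene of either kind was found there for 35 trace genes (28.2%), against 43.4% of the others. Within 5 places, 49 trace genes (39.5%) had a gene called higher in 19G, against 18.9% of the others, 27 (21.8%) had one called higher in 20G, against 21.3%, and 56 (45.2%) had neither, against 64.1%. Tested genes within 10 places averaged 7.73 per trace gene and 8.99 per other gene. Trace genes are called higher in 19G through the rule itself, and 8 pairs of them lay up to 10 places apart. Part of the shares for 19G and for neither kind thus comes from the values that chose the set. Shares with trace genes left out of the neighbours were not computed, and no test of the differences was made. The new loci assembled by the authors carry no position in the table used, so they are absent from these counts.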

How the data were processed

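RNA of petioles was sequenced from poly(A)-enriched libraries, 3 of line 19G and 3 of line 20G (grouping and numbering from the titles). The deposited values are FPKM, as the authors' column names in the labels give the unit. The aligner, assembler, genome build and filters are named in neither labels nor files, and no counting interval can be given because depth is unknown. The members and lists were chosen with earlier results of these data known. Loci with at least 1 FPKM in 3 or more of the 6 libraries (28292) were compared on log2(FPKM + 1) in R 4.3.3 by limma 3.58.1 (trended variances, two-sided, Benjamini-Hochberg adjustment over all loci, no covariates); differences are 19G minus 20G. A call needed an adjusted p below 0.05 plus an absolute log2 difference of 1 or more. The fit and the neighbour counts were tested on simulated data. For the fit, each simulated locus had the same spread in both lines, a setting not matched to the trace genes. Nothing about the trace genes is read from it. Gene order came from RefSeq's table and was handled in Python 3.11.15 with pandas 2.3.3. Genes were named by level (the 20 highest in 19G), closeness to the thresholds, evenness (5 most even, 5 most uneven) and adjacency to another trace gene; others are said to have been chosen later, including the genes beside trace genes and the genes at the extremes of the ratio between lines. Planned parts that need product names, proteins or promoters were not analysed here. Alternatives covered the rule's thresholds, pseudocounts, filters, scaling, weights, a replicate block and each library left out.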

Additional observations from a re-analysis of the deposited data

How the results depend on the processing

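The number of trace genes depends on its thresholds by construction: it was 80 with at least 5 FPKM asked of 19G and 273 with genes listed at 0 in 20G kept. It lay between 91 and 178 with the other thresholds and scaling tried, and between 108 and 184 with each library left out of the rule. A filter at mean FPKM 5 or more, which tests fewer loci, left 1860 of 4849 calls, 55 of the 124 trace genes called and 7 adjacent genes called higher in 19G. In every other fit 123 or 124 trace genes were called higher in 19G. The gene not called, without 20G replicate 2, was LOC110864927. The rule chose the trace genes by the same contrast, so nothing is read from their calls in any fit. Adjacent genes called higher in 19G were 15 to 18 in the remaining fits on all libraries, and 56 up to 5 places, 92 up to 10 places and 39 with places counted among tested genes only, wider counts by construction (the last 2 were added after seeing the data). As a share of the genes tested, adjacent genes called higher in 19G ran from 9.87% without a filter to 20.7% with a pseudocount of 0.1. The shares of the other RefSeq genes under the same settings were 3.06% and 5.57%. With places counted among tested genes only, the share was 16.3%, against 4.88% of the other RefSeq genes. With each library left out, calls ranged from 4345 to 5690, trace genes called from 123 to 124, and adjacent genes called higher in 19G from 12 to 17. Those adjacent genes were 13.8% to 19.5% of the ones tested, against 4.1% to 7.02% of the other RefSeq genes over the same fits. The 43 trace genes followed singly through the fits kept their direction in all 627 values, which the rule all but fixed in advance. Some trace genes named in the text, such as LOC110884353 and LOC110878648, were not among these 43. Correlations of the deviations between equal replicate numbers were 0.24, -0.01 and 0.13. Of the 6 libraries, 3 correlated best with the same number in the other line. Pairing by replicate number could thus not be settled. A fit with the replicate block called 5126 loci (4807 also called without the block), and 16 adjacent genes were called higher in 19G. These 16 were 18.4% of the adjacent genes tested, against 5.26% of the other RefSeq genes in that fit. Homologues were not compared, since no protein sequences were used here. How far the unknown depth limits the trace values cannot be stated.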
